A study of Chromochloris zofingiensis with 18 samples.

Results

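The genes described here encode the enzymes annotated for the last 3 reactions of each elongation cycle of fatty acid synthesis in the green microalga *Chromochloris zofingiensis*. They were taken by gene ID and comprise 4 genes for 3-ketoacyl-acyl carrier protein reductase, KAR1 (Cz01g34370), KAR2 (Cz16g00050), KAR3 (Cz10g18200) and KAR4 (Cz03g39140), the gene for 3-hydroxyacyl-acyl carrier protein dehydratase, HAD (Cz01g09160), and the gene for enoyl-acyl carrier protein reductase, ENR (Cz11g20040). These are 6 of the 15220 genes listed in at least 1 sample, and 6 of the 23 genes annotated to fatty acid synthesis. All 6 were listed in every sample and had a mean of at least 5 FPKM, fragment counts scaled by transcript length and by the mapped total of the library. The annotation of KAR4 carries a question mark. KAR5 (Cz15g00050), KAR6 (Cz04g17270) and KAR7 (Cz11g27250, also queried) have the same annotation and are given only for comparison.

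The samples were 18 mRNA libraries of the strain ATCC30412 grown in liquid culture in constant light, 3 replicate cultures in each of 6 conditions. Sulfur-starved cells were sampled 6, 12, 24 and 48 h after transfer to medium with MgCl2 in place of MgSO4 (SS-6 h and so on), and replenished cells 12 h after sulfur was given back to cultures starved for 48 h (SR-12 h). The control was exponential-phase cells at 0 h, at transfer, so all groups share the strain, light and aeration. Sulfate is said in the methods to have been added to the culture, but in the series record the cells went into fresh complete medium, and which was done for SR-12 h is not settled here. The samples analysed here hold no sulfur-replete culture at the later times, so starvation and time since transfer cannot be told apart, and the results describe a single strain.

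Chloroplast fatty acid synthesis adds a small carbon unit to the growing acyl chain in each turn of a cycle run by separate enzymes, with the chain held on acyl carrier protein. After a ketoacyl synthase (KAS) condenses the chain with malonyl-acyl carrier protein, KAR reduces the keto group, HAD removes water, and ENR reduces the double bond that is left. In green algae the chains made in this way feed both membrane lipids and the triacylglycerol that many species store under nutrient starvation.

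The libraries listed 14351 to 14867 genes each. Read totals were not part of the values used, but the steps between low FPKM values gave a relative depth of 0.753 in SS-6 h replicate 1 and 0.921 to 1.014 in the others, with 0 h replicate 1 set to 1. The authors list a clean read total for SS-6 h replicate 1 within the range of the others, but the lowest share of reads mapped to genes. Replicates differed by 0.268 to 0.806 (root mean square of log2(FPKM + 1) over genes) within SS-6 h, with replicate 1 standing apart, and by 0.198 to 0.341 within the other conditions. FPKM is relative to the mapped total of a library, so less of a transcript and more of the other mRNA cannot be told apart. The summed FPKM was not fixed, and ran from 895979 in SS-48 h replicate 3 to 1136889 in SS-6 h replicate 1. Over genes with a mean of at least 1 FPKM, the median log2 fold change was -0.20 for SS-6 h and 0.22 for SS-48 h, both against 0 h, and it was -0.36 for SR-12 h relative to SS-48 h, 0.18 for SS-12 h relative to SS-6 h and 0.23 for SS-48 h relative to SS-24 h, so the changes below are to be read beside these shifts.

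KAR1, HAD and ENR had their highest FPKM at SS-6 h and their lowest at SR-12 h, with no overlap between the replicates of either condition and those of any other. KAR2 was the least abundant member in every condition and was also lowest at SR-12 h. It was high at both SS-48 h and SS-6 h, whose replicates overlapped, and the order of their means turned without SS-6 h replicate 1. KAR3 had its highest mean at SS-12 h. KAR4, unlike KAR1, was highest at SR-12 h and, in FPKM as deposited, lowest at SS-6 h, while with median-ratio scaling its lowest level was at SS-48 h. The ratio of the highest to the lowest condition mean was 34.1 for KAR2, 32.7 for HAD, 16.5 for KAR1, 6.23 for ENR, 2.6 for KAR4 and 2.49 for KAR3. Over the 6 conditions all 6 genes passed limma's moderated F test (largest adjusted p = 7.9e-07, of KAR2), a test that 91.5% of the 15220 genes passed, so the pass itself sets them apart little. HAD had the 76th largest F of all genes and KAR2 the 6345th.

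**Figure D1:**
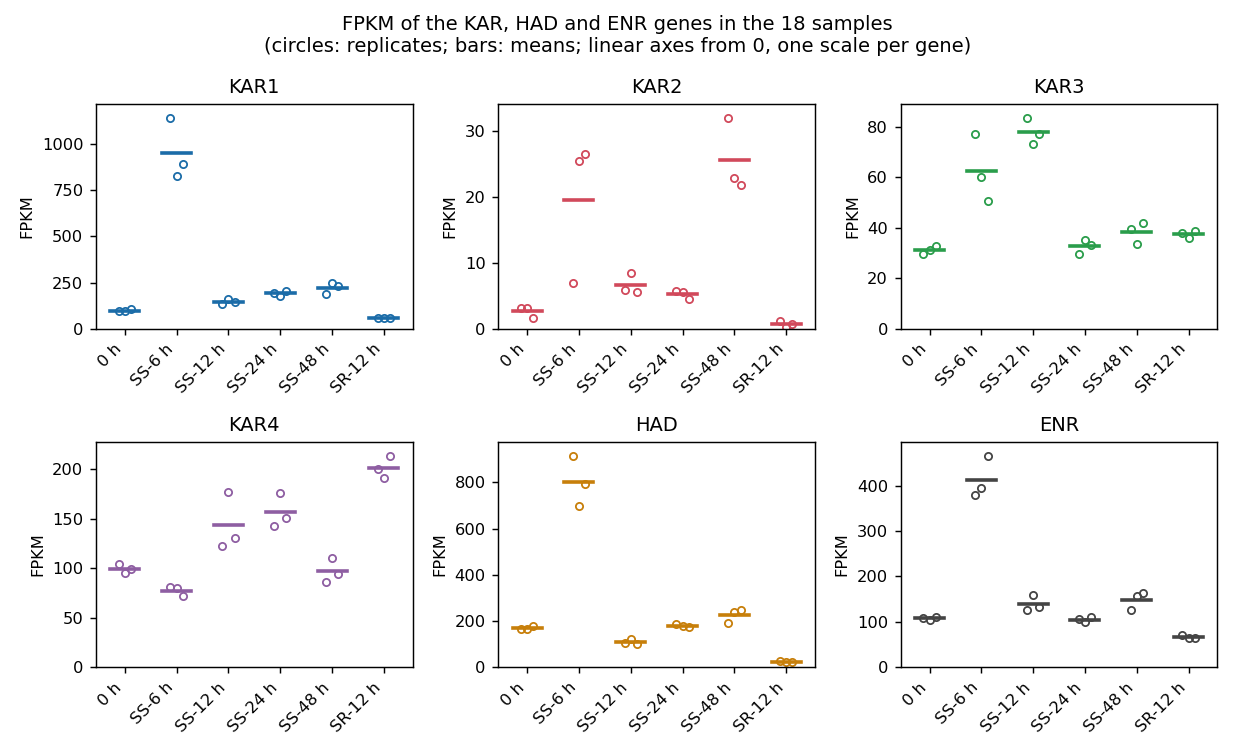
FPKM of KAR1, KAR2, KAR3, KAR4, HAD and ENR (y axis, linear from 0, one scale per gene) in the 6 conditions in order of time (x axis), with circles for the 3 replicates and bars for their mean. KAR1, HAD and ENR peak at SS-6 h with means of 952, 802 and 413 FPKM, while KAR4 has 77.4 FPKM there, its lowest mean as deposited (with median-ratio scaling the lowest is SS-48 h), and is highest at SR-12 h at 201 FPKM.

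KAR1, a reductase of the first reduction of the cycle, was read at 93.71, 95.35 and 107.23 FPKM at 0 h, 1140.8, 825.06 and 890.83 FPKM at SS-6 h, and 136.29, 160.37 and 145.19 FPKM at SS-12 h (replicates 1, 2 and 3 in order, here and below). Its values were 190.67, 179.26 and 202.72 FPKM at SS-24 h, 185.91, 246.55 and 232.14 FPKM at SS-48 h, and 56.92, 59.87 and 56.85 FPKM at SR-12 h. Every starved sample was above every 0 h sample, the SS-6 h samples were far above all others, and SR-12 h was below all others, while SS-48 h and SS-24 h overlapped. At SS-6 h KAR1 had more FPKM than 98.9% of the listed genes, against 89.8% at 0 h.

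Against 0 h the mean of KAR1 was 9.64-fold higher at SS-6 h, a log2 fold change of 3.24 ± 0.12 (limma standard error, here and below; adjusted p = 7.7e-12), and 3.11 without SS-6 h replicate 1. It fell again by SS-12 h, 6.47-fold below SS-6 h (log2 fold change -2.67 ± 0.12, adjusted p = 2.6e-10), and was still higher than 0 h at SS-48 h (1.15 ± 0.12, adjusted p = 7.4e-07). A call, higher or lower, needed a log2 fold change no smaller than 1 in either direction together with an adjusted p no larger than 0.05, and by this rule KAR1 was not called at SS-12 h (0.57 ± 0.12, adjusted p = 0.00075) or SS-24 h (0.94 ± 0.12, adjusted p = 1.1e-05) against 0 h. At SR-12 h KAR1 was 3.83-fold lower than at SS-48 h (-1.91 ± 0.12, adjusted p = 2.1e-09), and its difference from 0 h was -0.76 ± 0.12 (adjusted p = 7.9e-05), below the size called. The SS-48 h call was lost with median-ratio scaling, which gave 0.93, and the SS-24 h value just reached the size called without 0 h replicate 3 (adjusted p = 3.8e-05).

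KAR2, a second gene with the same annotation, had 3.16, 3.21 and 1.66 FPKM at 0 h, 6.88, 25.43 and 26.58 FPKM at SS-6 h, and 5.89, 8.42 and 5.61 FPKM at SS-12 h. Later it had 5.73, 5.64 and 4.52 FPKM at SS-24 h, 32.06, 22.94 and 21.8 FPKM at SS-48 h, and 1.24, 0.34 and 0.67 FPKM at SR-12 h. SS-6 h replicate 1, the library of lowest relative depth, was far below the other SS-6 h replicates and within the range of SS-12 h, and whether the depth had a part in this was not tested. All starved samples were above the 0 h samples, and the SR-12 h samples were below them. At 0 h KAR2 had more FPKM than only 13.5% of the listed genes, and its standard error was the largest of the 6 genes.

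The mean of KAR2 was 7.33-fold higher at SS-6 h than at 0 h (2.32 ± 0.38, adjusted p = 5.5e-05), with a log2 fold change of 2.91 without SS-6 h replicate 1 and 3.05 with quantile normalization. At SS-48 h it was 9.56-fold higher than at 0 h (2.87 ± 0.38, adjusted p = 8.8e-06) and 4.83-fold higher than at SS-24 h (2.06 ± 0.38, adjusted p = 0.00023). KAR2 was also called higher at SS-12 h (1.07 ± 0.38, adjusted p = 0.024), a call lost without 0 h replicate 3 (0.85) or SS-12 h replicate 2 (0.91), and it was not called at SS-24 h (0.80 ± 0.38, adjusted p = 0.098), where quantile normalization gave a call at 1.03. Its fall at SS-12 h relative to SS-6 h (-1.25 ± 0.38, adjusted p = 0.011) had overlapping replicates, was -1.84 without SS-6 h replicate 1, and was lost without SS-6 h replicate 2 (-0.97), without SS-6 h replicate 3 (-0.94) and in a fit of these 2 conditions alone (adjusted p = 0.13).

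At SR-12 h KAR2 averaged 0.75 ± 0.455 FPKM, against 25.6 ± 5.62 FPKM at SS-48 h (SD, n = 3 each), which is 34.1-fold lower (log2 fold change -3.94 ± 0.38, adjusted p = 2.3e-07). It was also lower than at 0 h (-1.07 ± 0.38, adjusted p = 0.027). The fold change on the log2(FPKM + 1) scale is smaller than that of the means, 3.57-fold lower, because 1 is added to values near 1. With 0.1 added in place of 1, the log2 fold change of KAR2 at SR-12 h was -1.80 against 0 h (adjusted p = 0.005) and -5.04 against SS-48 h. The call against 0 h was lost with quantile normalization (-0.75) and without 0 h replicate 1 (-0.97), 0 h replicate 2 (-0.96), SR-12 h replicate 2 (-0.90) or SR-12 h replicate 3 (-1.05).

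KAR3, annotated as the same reductase, gave 29.6, 31.27 and 32.95 FPKM at 0 h, 77.01, 60.03 and 50.65 FPKM at SS-6 h, and 83.56, 73.03 and 77.21 FPKM at SS-12 h. Its later values were 29.63, 35.09 and 33.16 FPKM at SS-24 h, 39.52, 33.41 and 42 FPKM at SS-48 h, and 37.94, 35.85 and 38.9 FPKM at SR-12 h. The SS-6 h and SS-12 h samples overlapped each other and lay above all remaining samples, and SS-24 h overlapped 0 h. KAR3 was higher at SS-12 h than at 0 h, 2.49-fold (1.29 ± 0.12, adjusted p = 4e-07), and lower at SS-24 h than at SS-12 h, 2.39-fold (-1.23 ± 0.12, adjusted p = 5.9e-07). At SS-6 h its log2 fold change against 0 h was 0.96 ± 0.12 (adjusted p = 5.6e-06), just under the size called. Leaving out SS-6 h replicate 1 gave 0.80, and KAR3 was called without SS-6 h replicate 3 (1.10) and with median-ratio scaling (1.17). The log2 fold change of KAR3 was 0.28 ± 0.12 at SS-48 h (adjusted p = 0.065) and 0.26 ± 0.12 at SR-12 h (adjusted p = 0.1), each against 0 h, and it was -0.02 ± 0.12 at SR-12 h relative to SS-48 h (adjusted p = 0.89), where the sign changed with the scaling.

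KAR4, whose annotation as this reductase is queried, had 104.39, 94.79 and 99.41 FPKM at 0 h, 80.76, 79.86 and 71.66 FPKM at SS-6 h, and 122.56, 176.67 and 130.84 FPKM at SS-12 h. It then had 142.88, 175.81 and 150.52 FPKM at SS-24 h, 86.36, 110.7 and 94.38 FPKM at SS-48 h, and 200.28, 190.71 and 213.18 FPKM at SR-12 h. In FPKM as deposited all SS-6 h samples were below all others, all SR-12 h samples were above all others, and SS-48 h overlapped 0 h. With median-ratio scaling the log2 fold change of KAR4 against 0 h was -0.15 for SS-6 h (adjusted p = 0.3) and -0.26 for SS-48 h, so its place as lowest at SS-6 h depends on the scaling. KAR4 was the member with no starved time point called against 0 h: its log2 fold changes were -0.36 ± 0.12 at SS-6 h (adjusted p = 0.018), 0.50 ± 0.12 at SS-12 h (adjusted p = 0.0027), 0.64 ± 0.12 at SS-24 h (adjusted p = 0.00058) and -0.04 ± 0.12 at SS-48 h (adjusted p = 0.8). At SR-12 h KAR4 was 2.07-fold higher than at SS-48 h (1.05 ± 0.12, adjusted p = 2.4e-06) and 2.02-fold higher than at 0 h (1.01 ± 0.12, adjusted p = 7.1e-06). This was the opposite direction to KAR1, KAR2, HAD and ENR, of which KAR1 and ENR were not called against 0 h. Both values of KAR4 lie near the size called. Rescaling to TPM, in which each library has the same total, gave 0.92 and 0.95, and neither was then called. The call against SS-48 h was also lost without SS-48 h replicate 1 (0.97), and that against 0 h without 0 h replicate 2 (0.97) or SR-12 h replicate 3 (0.97).

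HAD, the only gene of the 23 annotated for the dehydration step, had 165.12, 164.56 and 180.11 FPKM at 0 h, 913.68, 699.29 and 794.16 FPKM at SS-6 h, and 103.88, 121.34 and 102.29 FPKM at SS-12 h. It had 186.12, 176.11 and 175.85 FPKM at SS-24 h, 189.37, 237.16 and 248.31 FPKM at SS-48 h, and 27.25, 24.29 and 22 FPKM at SR-12 h. The SS-6 h samples were far above and the SR-12 h samples far below all others, SS-12 h lay below 0 h without overlap, and SS-24 h overlapped 0 h. The mean was 4.72-fold higher at SS-6 h than at 0 h (2.23 ± 0.12, adjusted p = 1.8e-10), and 2.13 on the log2 scale without SS-6 h replicate 1. From there HAD fell 7.35-fold by SS-12 h (-2.86 ± 0.12, adjusted p = 9.5e-11), to a level with a log2 fold change of -0.64 ± 0.12 against 0 h (adjusted p = 0.00022), not large enough to be called. Its values against 0 h were 0.08 ± 0.12 at SS-24 h (adjusted p = 0.62), with the sign changed by quantile normalization, and 0.39 ± 0.12 at SS-48 h (adjusted p = 0.0079).

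At SR-12 h HAD averaged 24.5 ± 2.63 FPKM, against 225 ± 31.3 FPKM at SS-48 h and 170 ± 8.82 FPKM at 0 h (SD, n = 3 each). This was 9.18-fold lower than SS-48 h (-3.14 ± 0.12, adjusted p = 7.3e-12) and 6.93-fold lower than 0 h (-2.75 ± 0.12, adjusted p = 7.3e-11). Against 0 h, HAD was the only one of the 6 genes with a log2 fold change beyond -2 at SR-12 h, and both calls held in every alternative run.

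ENR, which completes the cycle, had 107.52, 103.71 and 110.51 FPKM at 0 h, 379.33, 395.2 and 464.74 FPKM at SS-6 h, and 125.31, 159.37 and 131.49 FPKM at SS-12 h. Later it had 105.08, 99.94 and 109.55 FPKM at SS-24 h, 126.65, 156.12 and 162.32 FPKM at SS-48 h, and 69.94, 64.01 and 65.04 FPKM at SR-12 h. Again SS-6 h was above and SR-12 h below all other samples, SS-48 h overlapped SS-12 h, and SS-24 h overlapped 0 h. The mean was 3.85-fold higher at SS-6 h than at 0 h (1.93 ± 0.11, adjusted p = 3.1e-10), and 1.99 on the log2 scale without SS-6 h replicate 1. At SS-12 h it was 2.98-fold lower than at SS-6 h (-1.57 ± 0.11, adjusted p = 9.3e-09). ENR was not called at the later times of starvation, with 0.36 ± 0.11 at SS-12 h (adjusted p = 0.0083), -0.03 ± 0.11 at SS-24 h (adjusted p = 0.84) and 0.46 ± 0.11 at SS-48 h (adjusted p = 0.0015). At SR-12 h it was 2.24-fold lower than at SS-48 h (-1.14 ± 0.11, adjusted p = 1.5e-07), a call lost with median-ratio scaling (-0.79), and its value against 0 h was -0.69 ± 0.11 (adjusted p = 6.2e-05), not called.

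Counted over each comparison, 4 of the 6 genes (KAR1, KAR2, HAD and ENR) were called higher at SS-6 h than at 0 h and 0 were called lower. Among all genes, 9.64% were called higher and 21.7% lower. At an unadjusted p under 0.05 in limma 5 members were above and 1, KAR4, below, beside 4239 above and 6592 below of the 15220 genes. The median over all 6 members was 2.08 on the log2 scale, beside -0.17 over all genes. The members' share lies above the share of all genes called higher, but the members were chosen with earlier results of these data known. KAR5 to KAR7, of the same annotation as KAR1, had 0 of 3 called higher. The difference in share is therefore a description of these 6 genes and no test. The same 4 genes were then called lower at SS-12 h relative to SS-6 h, where 5.18% of all genes were called lower and 10.1% higher (median -1.41 for the 6 genes and 0.13 for all genes). The SS-6 h samples enter both comparisons, which are therefore not independent.

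At SS-12 h 2 of the 6 genes, KAR2 and KAR3, were called higher than 0 h, beside 7.42% of all genes, and 0 were called lower, beside 11.9%. At an unadjusted p under 0.05 in limma 5 were above 0 h and 1, HAD, below, beside 4362 and 5165 of the 15220 genes. At SS-24 h 0 of 6 were called in either direction against 0 h, beside 4.57% of all genes called higher and 6.89% called lower. Limma gave an unadjusted p under 0.05 to 2 of them, KAR1 and KAR4, both above 0 h by less than the size called. By the same p, 3622 of the 15220 genes were above 0 h and 4191 below. At SS-48 h 2 genes, KAR1 and KAR2, were called higher, beside 12.7% of all genes, and 0 were called lower, beside 8.04%. The unadjusted p of limma was under 0.05 for 5 members above 0 h and 0 below, beside 6546 and 3239 of the 15220 genes. Of the steps between neighbouring times, SS-24 h against SS-12 h had KAR3 as the gene called lower (8.73% of all genes) and none called higher (11.2%), and SS-48 h against SS-24 h had KAR2 as the gene called higher (13.1%) and none called lower (6.59%). With only 6 genes, counts of 0 to 2 called genes allow no reading against these backgrounds.

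In the replenished cells relative to SS-48 h, 4 genes (KAR1, KAR2, HAD and ENR) were called lower, beside 18% of all genes, and 1, KAR4, was called higher, beside 8.21%. The median log2 fold change was -1.53 for the 6 genes and -0.32 for all genes. Against 0 h, 2 genes (KAR2 and HAD) were called lower at SR-12 h, beside 8.42% of all genes, and KAR4 was called higher, beside 4.99%. These comparisons share the SR-12 h samples, and those of the time points with 0 h share the 0 h samples.

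**Figure D2:**
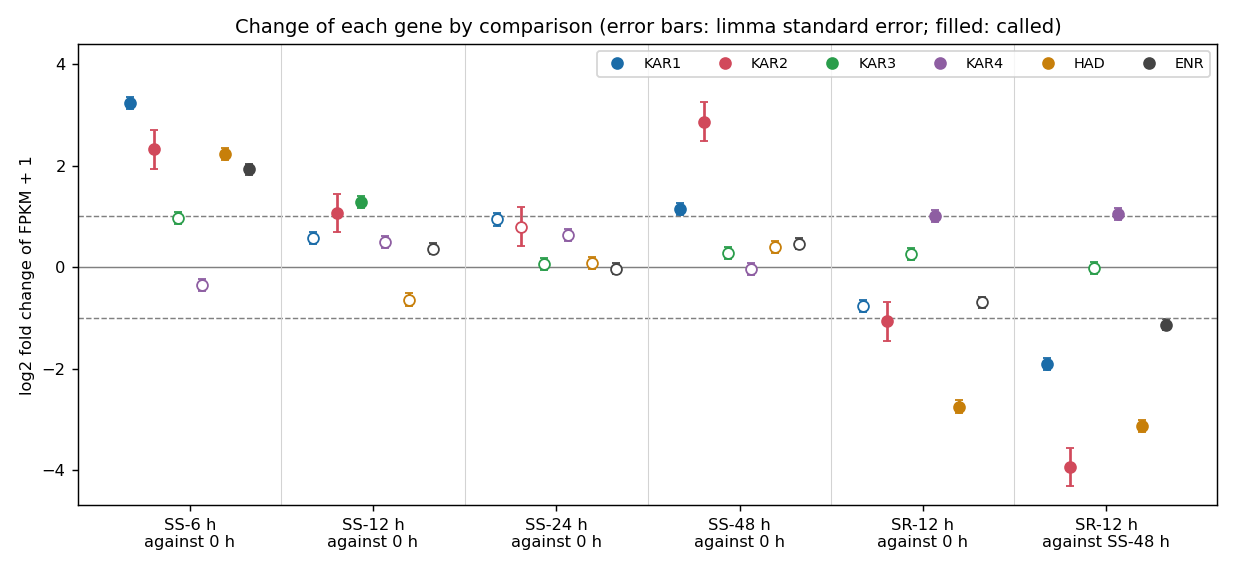
Log2 fold change of FPKM + 1 (y axis) of the 6 genes in 6 comparisons (x axis), with limma's standard error as error bars, filled points for called changes and dashed lines at the size called. KAR4 lies below 0 at SS-6 h (-0.36) and above 1 at SR-12 h (1.01 against 0 h and 1.05 against SS-48 h), while KAR1 reaches 3.24 and HAD -3.14 in the same comparisons.

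FPKM is given per length, so levels can be set side by side between genes. At 0 h HAD was the most abundant of the 6 genes at 170 ± 8.82 FPKM (SD, n = 3), above ENR at 107 ± 3.41, KAR4 at 99.5 ± 4.8 and KAR1 at 98.8 ± 7.38 FPKM, and those last 3 overlapped their neighbours in the order. KAR3 followed at 31.3 ± 1.68 FPKM and KAR2 at 2.68 ± 0.881 FPKM, each without overlap. At SS-6 h KAR1 and HAD overlapped at the top, with 952 ± 167 and 802 ± 107 FPKM, and ENR was below both at 413 ± 45.4 FPKM. At SR-12 h the order was KAR4 (201 ± 11.3 FPKM), ENR (66.3 ± 3.17), KAR1 (57.9 ± 1.72), KAR3 (37.6 ± 1.56), HAD (24.5 ± 2.63) and KAR2 (0.75 ± 0.455), with no overlap between neighbours. HAD thus led the 6 genes at 0 h, and at SR-12 h only KAR2 was below it.

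The make-up of the KAR mRNA differed between conditions. The summed FPKM of KAR1 to KAR4 averaged 232 ± 8.4 in the 0 h samples, 1110 ± 169 in those of SS-6 h, 375 ± 37.8 after 12 h, 385 ± 14.3 after 24 h and 383 ± 35.5 after 48 h of starvation, and 298 ± 11.5 at SR-12 h (SD, n = 3 each). KAR1 made up 42.5 ± 1.93% of this sum in the 0 h samples, 85.5 ± 2.05% at SS-6 h, 39.3 ± 1.08% after 12 h, 49.6 ± 3.74% after 24 h and 57.7 ± 3.16% after 48 h of starvation, and 19.5 ± 1.28% at SR-12 h. KAR4 made up 42.9 ± 2.09, 7.05 ± 0.948, 38.0 ± 3.74, 40.6 ± 3.35, 25.4 ± 1.31 and 67.6 ± 1.18% in the same order of conditions. KAR1 and KAR4 thus held like shares at 0 h and SS-12 h, and of the 4 genes KAR1 had the largest share at SS-6 h and KAR4 at SR-12 h. The annotation of KAR4 is queried, and the higher sum at SR-12 h than at 0 h rests on KAR4. From 0 h to SR-12 h the means went from 98.8 to 57.9 FPKM for KAR1, 2.68 to 0.75 for KAR2 and 31.3 to 37.6 for KAR3.

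KAR3 had its highest share at SS-12 h, 21.0 ± 3.3%, and its lowest at SS-6 h, 5.61 ± 0.645%. KAR2 reached 6.82 ± 2.17% at SS-48 h, against 1.38 ± 0.203% at SS-24 h, and had 0.251 ± 0.153% at SR-12 h. Each of the 4 shares differed over the 6 conditions in a permutation test (100000 relabellings of the 18 samples, 4 tests), with an adjusted p of 1.3e-05 for KAR1, KAR3 and KAR4, whose raw p of 1e-05 is the smallest this test can give, and 0.00039 for KAR2. The shares sum to 100% within a sample, so they are not independent of each other. RSEM divides reads that fit several transcripts between them, and how alike the KAR genes are in sequence was not examined, so the split between them carries an error not in the SD.

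**Figure D3:**
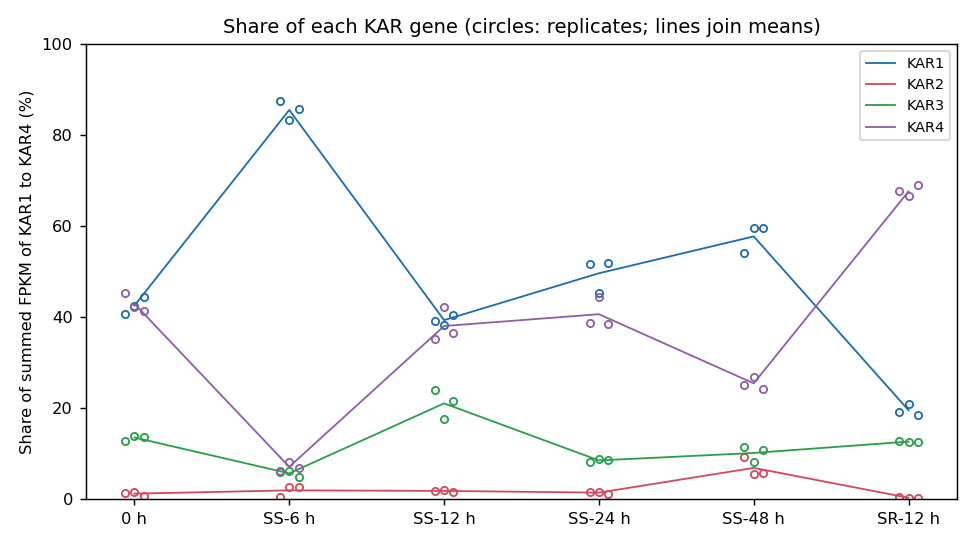
Share of each of KAR1 to KAR4 in their summed FPKM (y axis, %) by condition in order of time (x axis), with circles for the 3 replicates and lines joining the means. KAR1 has 85.5% of the sum at SS-6 h and 19.5% at SR-12 h, and KAR4, whose annotation is queried, has 7.05% at SS-6 h and 67.6% at SR-12 h.

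With KAR5, KAR6 and KAR7 in the sum, KAR1 made up 28.1% at 0 h, 75.0% at SS-6 h and 14.7% at SR-12 h, and KAR4 28.4%, 6.18% and 50.9% at the same times, so KAR1 again led at SS-6 h and KAR4 at SR-12 h. This sum holds both queried genes, KAR4 and KAR7. KAR5, KAR6 and KAR7 moved less than KAR1 at SS-6 h, with log2 fold changes of 0.83 ± 0.11, 0.30 ± 0.07 and 0.12 ± 0.13 against 0 h, and 0 of these 3 were called there (2 at an unadjusted p under 0.05 in limma, KAR5 and KAR6). Both were above 0 h, as were 4239 of the 15220 genes by that unadjusted p. Of all genes 9.64% were called higher there and 21.7% lower. KAR5 averaged 19.0 FPKM at 0 h, 34.8, 18.1, 28.2 and 34.8 FPKM after 6, 12, 24 and 48 h of starvation, and 11.9 FPKM at SR-12 h. KAR6 averaged 63.7, 78.7, 82.2, 60.5, 57.9 and 50.2 FPKM in the same order, and was called in none of the 9 comparisons. KAR7 averaged 36.2, 40.3, 51.1, 38.9, 101 and 35.7 FPKM.

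KAR7 was the extra KAR gene with a called change during starvation, at SS-48 h. It had 109.33, 100.15 and 92.41 FPKM at SS-48 h, against 35.77, 35.1 and 37.68 FPKM at 0 h, with no overlap (log2 fold change 1.45 ± 0.13, adjusted p = 1.4e-07). At SS-48 h it made up 17.5 ± 2.07% of the sum of the 7 genes, against 7.6 ± 0.293% at SS-24 h. At SR-12 h KAR5 (-1.48 ± 0.11, adjusted p = 1.6e-08) and KAR7 (-1.47 ± 0.13, adjusted p = 9.3e-08) were called lower than at SS-48 h. Of the 7 KAR genes, KAR2 and KAR7 were those called higher at SS-48 h than at SS-24 h, 4.83-fold for KAR2 and 2.58-fold for KAR7.

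The mRNA levels of KAR1, HAD and ENR did not keep fixed ratios to each other. The log2 ratio of HAD to KAR1 (each FPKM + 1, within a sample) averaged 0.78 ± 0.03 in the 0 h samples, -0.24 ± 0.08 in those of SS-6 h, -0.43 ± 0.06 after 12 h, -0.09 ± 0.10 after 24 h and 0.02 ± 0.08 after 48 h of starvation, and -1.21 ± 0.16 at SR-12 h (SD, n = 3 each). HAD was thus above KAR1 at 0 h, nearer to it during starvation and well below it at SR-12 h. The ratio of ENR to KAR1 was 0.12 ± 0.08, -1.19 ± 0.34, -0.09 ± 0.07, -0.86 ± 0.02, -0.57 ± 0.07 and 0.19 ± 0.10 in the same order, lowest at SS-6 h and overlapping between SR-12 h and 0 h. The ratio of HAD to ENR was 0.66 ± 0.04, 0.95 ± 0.27, -0.34 ± 0.06, 0.77 ± 0.08, 0.60 ± 0.02 and -1.40 ± 0.10. HAD was thus above ENR in 4 of the 6 conditions and below it at SS-12 h and SR-12 h.

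A ratio within a sample is free of the scaling of that sample, apart from the added 1. Over the 6 conditions each of these 3 ratios differed in a permutation test (adjusted p = 1.2e-05 over 6 ratios, 100000 relabellings). Between 2 conditions an exact permutation test of 3 against 3 samples cannot give less than p = 0.10. That p was reached by HAD to KAR1 at SR-12 h against 0 h, with means of -1.21 and 0.78, and by HAD to ENR at SR-12 h relative to SS-48 h, with means of -1.40 and 0.60, since the replicates did not overlap. Most other comparisons of these ratios reached it too, even HAD to ENR at SS-48 h against 0 h, with means of 0.60 and 0.66. The p therefore does not set the named pairs apart. KAR4 to KAR1 had the widest range of the 6 ratios, with -3.59 ± 0.23 at SS-6 h, against 0.01 ± 0.13 at 0 h, and 1.78 ± 0.12 at SR-12 h, against -1.18 ± 0.10 at SS-48 h.

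**Figure D4:**
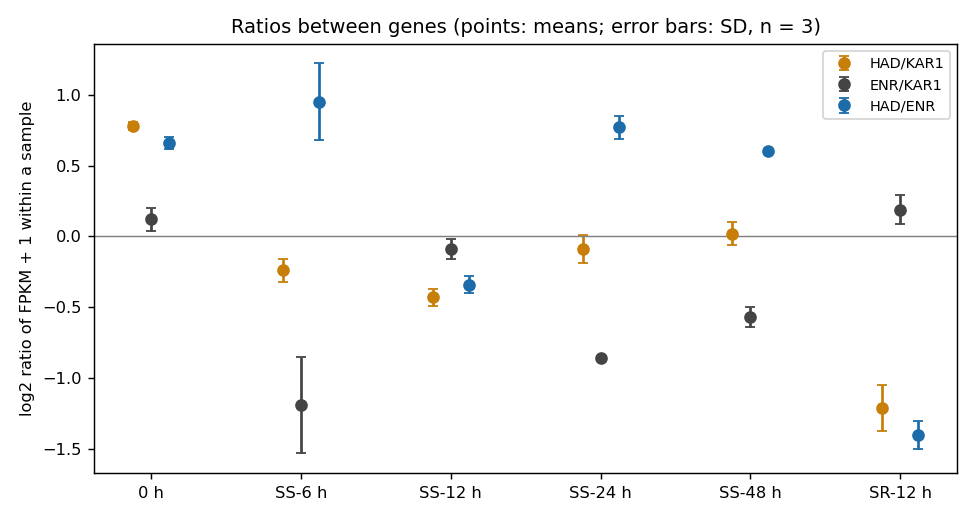
Log2 ratio of FPKM + 1 within a sample (y axis) for HAD to KAR1, ENR to KAR1 and HAD to ENR, by condition in order of time (x axis), as means with SD of 3 replicates. HAD to KAR1 is 0.78 at 0 h and -1.21 at SR-12 h, and HAD to ENR is -1.40 at SR-12 h.

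Likeness in pattern was measured as the root mean square difference of log2(FPKM + 1), each gene centred on its own mean, over the 18 samples, where 0 is the same pattern. Among the 6 genes KAR1 was nearest to ENR (0.53) and HAD (0.596), and HAD and ENR differed by 0.835, while the median of all 13777 other genes with a mean of at least 1 FPKM was 1.34 for KAR1, 1.55 for HAD and 0.942 for ENR. Genes nearer to KAR1 numbered 50 before ENR and 73 before HAD. Those nearer to HAD numbered 18 before KAR1 and 107 before ENR. Those nearer to ENR numbered 372 before KAR1 and 4724 before HAD. KAR4 was the farthest from its partners, at 1.62 from KAR1, 1.22 from ENR and 1.9 from HAD, with a median of 0.709 from all genes. KAR3 and KAR4 differed by 0.75, about the median of each. The samples share libraries and scaling across genes, so these are descriptions with no test.

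Among the 169 annotated genes of lipid, carotenoid and carbon metabolism, HAD was nearest to MCT1, malonyl-CoA:acyl carrier protein transacylase (0.204), and 0 of all 13777 genes were nearer. MCT1 averaged 571 FPKM at SS-6 h, against 87.2 FPKM at 0 h, and 18.7 FPKM at SR-12 h, against 159 FPKM at SS-48 h. KAR1 was nearest to KAS I, a condensing enzyme (0.218, second of all genes), BCCP2, a biotin carboxyl carrier protein of acetyl-CoA carboxylase (0.236), and PGAM1, a phosphoglycerate mutase (0.285). ENR was nearest to BCCP1 (0.246, second of all genes), β-CT, a carboxyltransferase subunit (0.253), and 6PGD, 6-phosphogluconate dehydrogenase (0.268).

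The other KAR genes had other neighbours. KAR2 was nearest to MLDP, the major lipid droplet protein (0.69), PGAM3, another phosphoglycerate mutase (0.698), and the desaturase gene FAD5 Cz07g00120 (0.745), with MLDP ranked 6th of all genes. KAR3 was nearest to MDH, malate dehydrogenase (0.221), ranked 22nd, then to ZISO, zeta-carotene isomerase (0.236), and MCS of the isoprenoid pathway (0.275). KAR4 was nearest to RPI2, ribose 5-phosphate isomerase (0.342), ranked 147th, then to FBP2, a fructose bisphosphatase (0.361), and GK, glucokinase (0.371). None of the 3 nearest annotated genes of KAR2, KAR3 or KAR4 was a fatty acid synthesis gene, whereas KAR1 had 2, HAD 3 and ENR 2.

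The other 17 genes annotated to fatty acid synthesis, which supply malonyl units, carry the chain and condense it, or are the extra KAR genes, were followed over the same comparisons. At SS-6 h 10 of 17 were called higher than 0 h and 1 lower, beside 9.64% and 21.7% of all genes. The median log2 fold change of the 17 was 1.69, beside 2.08 for the 6 genes. The largest was KAS I (3.60 ± 0.14) and the lowest ACCase, an acetyl-CoA carboxylase annotated apart from the subunits (-1.50 ± 0.15). SS-12 h against SS-6 h had 10 of 17 called lower and 0 higher (12 and 2 at an unadjusted p under 0.05 in limma). By that unadjusted p 2909 of the 15220 genes were lower and 5677 higher, and 5.18% of all genes were called lower and 10.1% higher. Against 0 h SS-12 h had 2 genes called higher and 1 called lower, beside 7.42% and 11.9% of all genes. SS-24 h had 1 and 0 (4.57% and 6.89% of all genes), and SS-48 h had 5 and 1 (12.7% and 8.04%). SR-12 h had 0 and 3 (4.99% and 8.42%). Counts this small allow no reading against these shares.

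Relative to SS-48 h, 12 of the 17 were called lower at SR-12 h and 0 higher (16 and 1 at an unadjusted p under 0.05 in limma), with a median of -1.48 beside -1.53 for the 6 genes. By that unadjusted p 7723 of the 15220 genes were lower and 3045 higher, and 18% of all genes were called lower and 8.21% higher. MCT1 had the lowest value (-3.03 ± 0.11) and ACCase the highest (0.85 ± 0.15). ACCase and KAR4 were the genes of the 23 below 0 at SS-6 h and above 0 at SR-12 h relative to SS-48 h. At SS-6 h ACCase was called lower, while KAR4 was not called at -0.36, and was at -0.15 with median-ratio scaling. MCT2 was also below 0 at SS-6 h (-0.58 ± 0.13) but lower at SR-12 h (-1.90 ± 0.13). SAD1, a stearoyl-acyl carrier protein desaturase that acts on finished chains, was higher at SS-6 h (298 FPKM, against 53 FPKM at 0 h, adjusted p = 1.5e-08) and lower at SR-12 h (40.5 FPKM, against 168 FPKM at SS-48 h, adjusted p = 1.9e-07). SAD2 had log2 fold changes of -0.21 ± 0.09 and -0.67 ± 0.09 in these comparisons and was not called.

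**Figure D5:**
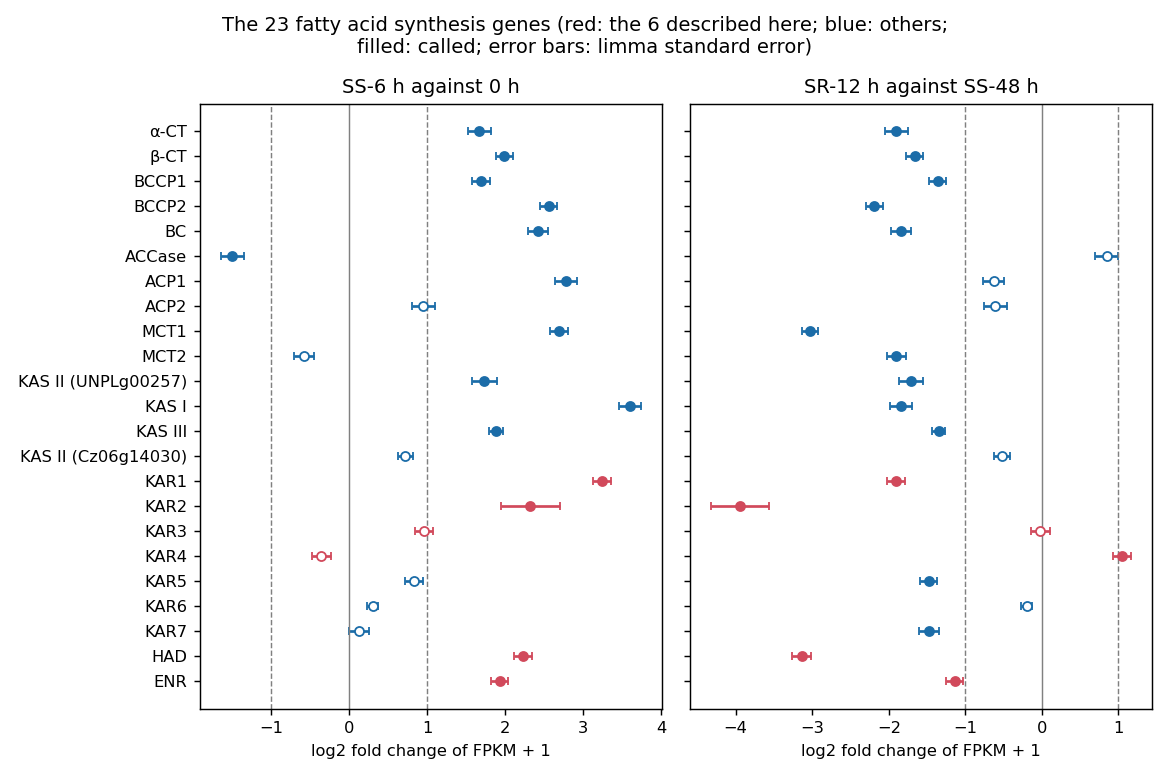
Log2 fold change of FPKM + 1 (x axis) of the 23 fatty acid synthesis genes (y axis, in pathway order) for SS-6 h against 0 h and for SR-12 h relative to SS-48 h, with the 6 genes described here in red, the other 17 in blue, limma's standard error as error bars and filled points for called changes. KAR1 (3.24) and KAS I (3.60) are farthest right at SS-6 h, and KAR2 (-3.94), HAD (-3.14) and MCT1 (-3.03) farthest left at SR-12 h.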

How the data were processed

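mRNA of 18 samples was sequenced as single-end reads of 50 bases. The authors filtered the reads, used HISAT for alignment to the genome and Bowtie2 for alignment to the gene set, and quantified with RSEM (versions and build not given in the sources used here). The deposited values are FPKM per gene and sample, given to 0.01, and a gene not listed in a sample was taken as 0. FPKM is not a read count and no read totals were used, so precision was judged from the replicates, which the series record describes as biological. Intervals from counts cannot be given, and genes of low FPKM such as KAR2 are the least precise.

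Groups came from the sample labels. log2(FPKM + 1) of all 15220 genes in all 18 samples was fitted with limma 3.58.1 (R 4.3.3, eBayes with trend, no block) for 9 comparisons. Benjamini-Hochberg adjustment ran over every gene within each comparison. A call needed a log2 fold change no smaller than 1 in either direction together with an adjusted p no larger than 0.05. Shares and ratios were tested by permutation with Python 3.11.15 and scipy 1.17.1. The fit was tested on simulated data.

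The alternatives were pseudocounts of 0.1 and 0.5, minimum means of 1 and 5 FPKM, median-ratio scaling, rescaling to TPM, quantile normalization, a fit of only the compared conditions, a replicate block, no trend, and leaving out each replicate. The genes named are the 6 members, KAR5 to KAR7, the extremes of the other fatty acid synthesis genes with SAD1 and SAD2, and the 3 nearest annotated genes of each member. MCT1, MCT2 and SAD values beyond this rule were added after they were seen. The members and lists were chosen with earlier results of these data known. No sequences or coordinates are given, since no genome or annotation was used here.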

Additional observations from a re-analysis of the deposited data

How the results depend on the processing

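The 6 genes had 864 log2 fold changes under the alternatives: 831 kept their direction and their side of the threshold, 17 lost a call, 4 gained one and 12 changed sign, all 12 at values that were not called. The changes of sign by scaling were HAD at SS-24 h against 0 h (-0.11, quantile), KAR4 at SS-48 h against 0 h (0.03, TPM), KAR3 at SR-12 h relative to SS-48 h (0.32, median-ratio and quantile), and KAR1 (-0.04, median-ratio) and KAR3 (-0.02, median-ratio and quantile) at SS-48 h against SS-24 h. With a replicate left out, KAR3 at SR-12 h relative to SS-48 h ran between -0.12 and 0.05, KAR4 at SS-48 h against 0 h between -0.14 and 0.04, and ENR at SS-24 h against 0 h between -0.06 and 0.00.

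Of the counts of members called, those called higher were 5 in place of 4 at SS-6 h with median-ratio scaling (KAR3 gained), 1 in place of 0 at SS-24 h against 0 h with quantile normalization, 1 in place of 2 at SS-48 h with median-ratio scaling, and 0 in place of 1 at SR-12 h relative to either 0 h or SS-48 h with TPM. The counts of all genes called higher moved as well in these cases. They were 2067 in place of 1467 at SS-6 h, 804 in place of 695 at SS-24 h and 1268 in place of 1927 at SS-48 h. At SR-12 h they were 665 in place of 760 relative to 0 h and 1109 in place of 1249 relative to SS-48 h. Members called lower at SR-12 h against 0 h were 1 in place of 2 with quantile normalization, those lower at SR-12 h relative to SS-48 h were 3 in place of 4 with median-ratio scaling (ENR lost), and those lower at SS-12 h relative to SS-6 h were 3 in place of 4 in the fit of these 2 conditions alone (KAR2 lost). For the 2 scalings, all genes called lower were 1147 in place of 1281 and 1556 in place of 2732. With a replicate left out, the count called higher lay between 4 and 5 at SS-6 h, between 1 and 2 at SS-12 h and between 0 and 1 at SS-24 h, all relative to 0 h, and between 0 and 1 at SR-12 h, whether relative to 0 h or to SS-48 h. The count called lower lay between 1 and 2 at SR-12 h against 0 h, and between 3 and 4 at SS-12 h relative to SS-6 h. All genes called were not counted with a replicate left out or in the fit of 2 conditions. Whether these member counts moved more than those of all genes is therefore not known. The tests over the 6 conditions of the 4 shares, the 6 ratios and the 6 genes passed in every alternative run. The cause of these changes was not tested.

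Over all genes the share of called genes that were higher moved with scaling. It was 30.7% at SS-6 h against 0 h as deposited and 42.8% with median-ratio scaling, 61.2% and 45.3% for SS-48 h, 37.2% and 50% for SR-12 h relative to 0 h, 31.4% and 53.3% for SR-12 h relative to SS-48 h, 66% and 54.3% at SS-12 h against SS-6 h, and 66.5% and 50.8% at SS-48 h against SS-24 h. Deviations of same-numbered samples from their condition means had r between -0.57 and 0.35 (45 pairs of samples, mean -0.001). For samples of different number r lay between -0.459 and 0.586 (90 pairs, mean 0.001). These means run over all pairs of conditions, so a pairing between only some conditions could be averaged away. Whether the replicate number marks a pairing is therefore not known. A replicate block changed no call of a member, with KAR2 at SS-12 h against 0 h at 1.07 (adjusted p = 0.034).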
